A study of Mus musculus with 15 samples.

Results

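The genes described here are 38 rod and shared photoreceptor effector genes, which encode the proteins that turn light into an electrical signal in rods and the proteins that build the outer segment. They were chosen by name, without transcription factors, and a gene was kept where its transcripts summed to 0.5 FPKM or more in either group of at least 1 of 3 deposited comparison tables (FPKM is a level scaled to the length of a transcript and to the number of mapped fragments). Of the 38 genes, 37 were listed and kept, out of 16116 genes in the tables. The level of Slc24a1, the sodium, calcium and potassium exchanger of rods, was not analysed here, and only its promoter enters below. The gene nearest the limit was Cabp4, which reached 0.531 FPKM at its highest and so was kept in 2 comparisons, but lay at 0.463 and 0.473 FPKM in the comparison of WT with MUT and was left out there. The next lowest was Pde6a with 0.929 FPKM at its highest.

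Total RNA was sequenced from P2 (postnatal day 2) retinas of the outbred mouse stock CD-1, with 5 samples in each of 3 groups. WT retinas carried Neurog2CKO/CKO, a conditional allele of the proneural transcription factor gene Neurog2 on both chromosomes, without Cre. HET retinas were Chx10Cre;Neurog2CKO/+, with Cre and 1 conditional allele, and MUT retinas were Chx10Cre;Neurog2CKO/CKO, with Cre and both alleles conditional. Every group thus held at least 1 conditional allele, Cre was present in HET and MUT alone, and the presence of Cre and the loss of Neurog2 cannot be told apart in comparisons with WT. This Cre acts in retinal progenitors, and cells that a recombined progenitor gives rise to inherit the deletion, rods among them. Whether each sample is a separate animal is not labelled, so p-values rest on differences among the samples that may be technical in part or whole. The sample titles also carry codes whose first number is 7, 21 or 23, on 1, 1 and 3 samples of WT and of MUT and on 2, 1 and 2 of HET. What the codes stand for is not labelled, and the pooled values cannot be split by them. The tables hold 1 pooled value per group and transcript, so no value per sample, standard deviation or depth can be given.

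In a mature rod, the activated visual pigment switches on the G protein transducin, which relieves the inhibition of a cyclic GMP phosphodiesterase, and the fall in cyclic GMP closes a cation channel in the plasma membrane. Arrestin, a kinase, a GTPase-accelerating complex and guanylate cyclase with its calcium-sensing activators then end the response and restore the dark state. The cascade sits on a stack of membrane discs in the outer segment, a modified cilium. At postnatal day 2 the mouse retina is still making rods and outer segments have yet to be built, so these RNAs come from young cells.

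The authors' deposited table listed the targeted gene, Neurog2, at 59.5 FPKM in WT against 10.6 in MUT, a log2 fold change of -2.49 ± 0.32 (q = 0.0388). Throughout, a fold change is the second group over the first, and ± after the fold change of a transcript is the absolute ratio of that change to the deposited test statistic, an implied error and not a spread over samples. In HET, Neurog2 was at 42.4 FPKM against 59.2 FPKM in WT in the authors' deposited table. Six3, a homeobox gene of the retina used to check the tissue, was measured at 94.7 FPKM in WT against 97.1 in MUT. Of the 7 genes on that tissue list, 2 had a log2 ratio below 0 from WT to MUT and 5 above, with a median of 0.03. Those below were Otx2 at -0.10 and Rax at -0.36, with Rax at 134 FPKM in WT and 105 in MUT. From WT to HET the ratio of Rax was -0.32. Rpe65, Lrat and Best1 of the pigment epithelium were not listed. Of 10 pigment epithelium and melanocyte genes 7 were listed and 5 measured, and 4 of the 5 were below 0 from WT to MUT, with a median of -0.06. The summed level of the 7 listed genes was 133 FPKM in WT and 127 in MUT, of which Rlbp1, which Müller glia also express, made up 119 in WT. The pigment cell genes Pmel and Tyrp1 were at 6.15 and 2.78 FPKM in WT, with ratios of -0.19 and -0.34 from WT to MUT. Markers of other cells also differed between the pooled groups. The 11 measured microglia and macrophage genes were above 0 in 11 of 11 cases from WT to MUT, with a median log2 ratio of 0.54 and a summed level of 86.7 FPKM in WT and 124 FPKM in MUT. From WT to HET they summed to 85.7 and 109 FPKM, and from HET to MUT to 110 and 124 FPKM. The summed level of the 9 listed vascular genes was 122 FPKM in WT against 140.4 in MUT, of which Kdr alone made up 105 and 115. Among these genes 6 were measured. The tight junction gene Cldn5 was called higher in MUT than in WT by the authors' deposited table at 0.70 ± 0.38 (q = 0.0388). The groups also differed in sex-linked RNA, with the Y-linked Kdm5d at 3.73 FPKM in WT against 0.00117 in MUT, and Xist, the RNA of the inactive X chromosome, at 98.8 and 135.0 FPKM. From WT to HET, Kdm5d stood at 4.95 and 7.10 FPKM and Xist at 98.3 and 63.2 FPKM. From HET to MUT, Kdm5d stood at 5.41 and 0.00117 FPKM and Xist at 63.3 and 134.8 FPKM. The Y-linked genes Ddx3y and Uty were listed from WT to HET alone. The part of these markers in the results below was not tested.

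The levels of the 37 genes at postnatal day 2 spanned widely. In WT 6 genes were at 100 FPKM or more, 11 at 50 or more, 23 at 10 or more and 9 under 5 FPKM. The highest was Gnb1, the beta subunit of rod transducin that many other cells also use, with 373 FPKM summed over its transcripts in WT, 370.5 in HET and 371 in MUT. Next came Unc119, a carrier of lipid-modified transducin, with 229 FPKM in WT, and Pdc, the transducin-binding protein phosducin, with 205. Sag, the arrestin of rods, had 194 FPKM, Rom1, a tetraspanin of disc rims, 144, and Rbp3, the retinoid carrier of the space around photoreceptors, 143. At the other end stood Cabp4, the calcium sensor of the rod terminal, with 0.463 FPKM, Pde6a, a catalytic subunit of the phosphodiesterase, with 0.929, and Guca1b, an activator of guanylate cyclase, with 1.07. Impg1 followed with 1.64 FPKM and Fscn2 with 1.91. FPKM are per length, but these sums also hold short and non-coding transcripts, so levels of different genes can be set beside each other only roughly.

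**Figure D1:**
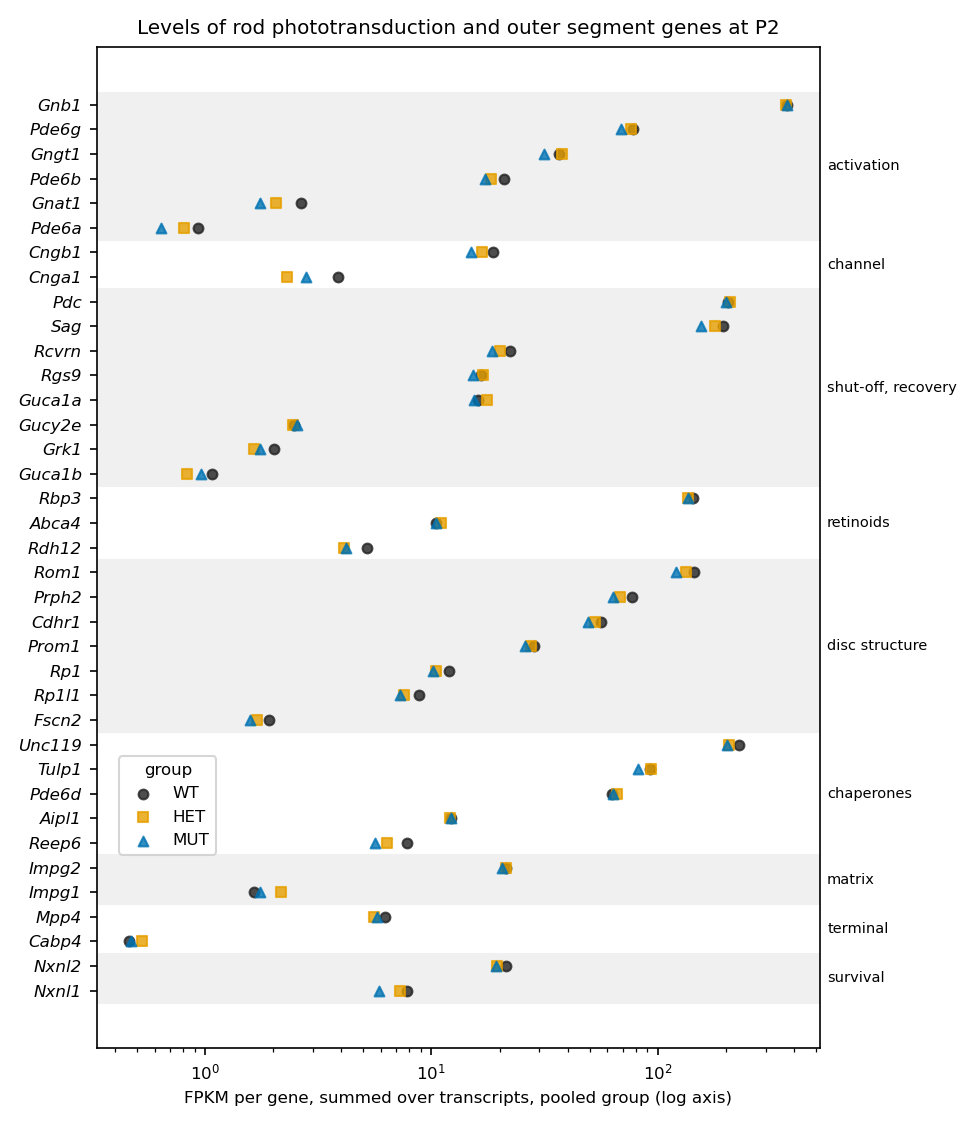
Level of each gene (FPKM summed over its transcripts, log axis) in the pooled WT, HET and MUT groups, ordered by role and, within a role, by level. Gnb1 is highest at 373 FPKM in WT and Cabp4 lowest at 0.463, and partners of 1 complex, such as Pde6b and Pde6a, lie far apart.

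Partners of 1 protein complex differed widely in level. Transducin is built from 1 subunit each of Gnat1, Gnb1 and Gngt1, yet Gnat1, the rod alpha subunit, was at 2.64 FPKM in WT, so Gnb1 was 141 times and Gngt1, the gamma subunit, 13.8 times as high. In MUT these ratios of levels were 211 and 17.8. Pde6b, the second catalytic subunit of the phosphodiesterase, was 22.5 times as high as Pde6a in WT, 22.6 times in HET and 26.9 times in MUT. Pde6g, the inhibitory subunit, was 3.71 times as high as Pde6b in WT. Cngb1 was 4.84 times as high as Cnga1, the other subunit of the cyclic GMP-gated channel, in WT, 7.32 times in HET and 5.35 times in MUT. Most of that Cngb1 sum came from a short transcript of its 5′ end, at 14.8 FPKM in WT. The full-length Cngb1 transcript was at 2.07 FPKM in WT, below the 3.88 FPKM of Cnga1. The disc rim pair was closer, with Rom1 1.88 times as high as Prph2 in WT, 1.97 times in HET and 1.89 times in MUT. Guca1a and Guca1b, neighbours on chromosome 17, differed by 15.0 times in WT. Sag was 95.8 times as high as Grk1, the kinase whose product prepares the pigment for arrestin.

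Promoter sequence was read for the members, since homeodomain and leucine zipper factors of photoreceptors bind near the starts of many of these genes. RefSeq windows of 250 bases before the annotated start (GRCm38.p6, the assembly of mm10) were given for 29 of the 38 genes, in 33 windows. The letters TAATCC, which read GGATTA on the other strand and are the core of sites bound by the photoreceptor homeodomain factors Otx2 and Crx, stood in 12 of the 33 windows (36.4%), against 6.25% of all 32851 windows. The 12 genes were Abca4, Aipl1, Cnga1, Cngb1, Gngt1, Guca1a, Gucy2e, Mpp4, Nxnl2, Rbp3, Sag and Unc119. For Unc119 the match lay in a window from base 78345334, inside the gene. The window at the start of its main transcript, base 78343482, held no TAATCC. Of the 13 matches in the 12 windows, 10 lay in the 100 bases nearest the start, while 35.9% of the 2166 matches over all windows did. The letters TGCTGA, which read TCAGCA on the other strand and are the core of Maf-type sites such as those of the rod factor Nrl, stood in 9 of the 33 windows (27.3%), against 16.1% of all. The letters CAGATG, which read CATCTG on the other strand and are an E-box of the kind that proneural factors bind, stood in 3 windows (9.09%), those of Aipl1, Impg2 and Rgs9, against 14.4% of all. Aipl1, Rbp3 and Sag held both TAATCC and TGCTGA in the same window, which is 9.09% of the windows against 0.962% of all. In Aipl1 the E-box and the Maf-type letters share their border bases. A match describes letters in a window and is not a site shown to be bound.

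The 7 windows below show the arrangements. Sag, Rbp3 and Aipl1 hold both kinds of letters, Cngb1 is the 1 member with TAATCC at 2 places, Gngt1 holds TAATCC alone and Pde6b and Nxnl1 hold TGCTGA alone. Each is printed 5′ to 3′ on the strand of its gene, ending at the base before the RefSeq start, with TAATCC and TGCTGA in either orientation in capitals. Sag is at chr1:87803430-87803679 (+), Rbp3 at chr14:33953753-33954002 (+), Aipl1 at chr11:72037510-72037759 (-), Cngb1 at chr8:95306586-95306835 (-), Gngt1 at chr6:3993758-3994007 (+), Pde6b at chr5:108388123-108388372 (+) and Nxnl1 at chr8:71566650-71566899 (-), all in GRCm38.p6.
Sag: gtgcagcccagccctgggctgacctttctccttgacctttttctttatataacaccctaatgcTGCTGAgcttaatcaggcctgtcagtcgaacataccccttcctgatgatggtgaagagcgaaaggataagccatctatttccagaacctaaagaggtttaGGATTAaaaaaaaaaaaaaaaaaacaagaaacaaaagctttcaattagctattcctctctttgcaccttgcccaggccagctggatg
Rbp3: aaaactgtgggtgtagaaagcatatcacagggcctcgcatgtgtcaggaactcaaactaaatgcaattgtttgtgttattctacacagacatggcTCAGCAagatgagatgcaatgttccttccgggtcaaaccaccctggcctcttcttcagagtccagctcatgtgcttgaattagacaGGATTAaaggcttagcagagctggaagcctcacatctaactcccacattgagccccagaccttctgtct
Aipl1: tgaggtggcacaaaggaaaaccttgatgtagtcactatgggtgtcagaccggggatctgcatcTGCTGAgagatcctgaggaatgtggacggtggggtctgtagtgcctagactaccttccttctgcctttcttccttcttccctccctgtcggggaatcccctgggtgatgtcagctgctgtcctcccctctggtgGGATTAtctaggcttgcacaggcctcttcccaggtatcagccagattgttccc
Cngb1: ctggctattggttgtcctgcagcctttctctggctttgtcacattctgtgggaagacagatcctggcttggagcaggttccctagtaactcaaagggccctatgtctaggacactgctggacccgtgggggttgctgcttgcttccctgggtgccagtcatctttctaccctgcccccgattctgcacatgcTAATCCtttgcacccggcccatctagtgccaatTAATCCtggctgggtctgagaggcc
Gngt1: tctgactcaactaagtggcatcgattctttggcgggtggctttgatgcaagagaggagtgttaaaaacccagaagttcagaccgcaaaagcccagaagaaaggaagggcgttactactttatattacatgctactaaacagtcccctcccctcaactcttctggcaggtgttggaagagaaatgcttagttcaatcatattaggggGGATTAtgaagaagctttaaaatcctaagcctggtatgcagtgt
Pde6b: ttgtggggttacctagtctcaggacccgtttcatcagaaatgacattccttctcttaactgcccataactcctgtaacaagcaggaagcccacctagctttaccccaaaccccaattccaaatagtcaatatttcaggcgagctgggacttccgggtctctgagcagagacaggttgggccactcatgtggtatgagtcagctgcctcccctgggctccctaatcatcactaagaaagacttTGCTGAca
Nxnl1: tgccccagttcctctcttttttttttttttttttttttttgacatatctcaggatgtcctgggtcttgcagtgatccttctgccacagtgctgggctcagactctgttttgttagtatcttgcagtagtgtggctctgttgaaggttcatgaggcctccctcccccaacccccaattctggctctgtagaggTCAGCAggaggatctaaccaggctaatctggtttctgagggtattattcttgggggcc

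Counted back from the RefSeq start, where -1 is the base before it, the GGATTA of Sag lies at -87 to -82, that of Rbp3 at -69 to -64, that of Aipl1 at -53 to -48 and that of Gngt1 at -44 to -39. For Gngt1 the annotations differ, as its GENCODE transcript starts at base 3993792, inside the printed window. The GGATTA of Gngt1 thus lies after that start. The pair in Cngb1 lies at -58 to -53 and -25 to -20. The windows of Rom1 and Prph2, the disc rim genes, held neither of these letters nor CAGATG, and the median GC content was 51.2% over the members' windows and 52.4% over all.

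Comparing WT with MUT addresses the loss of both Neurog2 copies. In the pooled values most of the genes were slightly lower in MUT, and the highest ratio, that of Impg1, was 0.08. Of 36 measured genes 31 had a log2 ratio of (FPKM + 0.1) below 0, against 46.2% of all 14860 genes that passed the same limit. Their median was -0.18, or -11.9%, with the middle 50% of the genes between -0.28 and -0.06 and a range from -0.56 to 0.08, while the median of all genes was 0.01. The 5 genes at or above 0 were Impg1, Gucy2e, Pde6d, Abca4 and Aipl1. Over the 23 genes with 10 FPKM or more in WT 20 were below 0, against 45.3% of all genes at that level, and over the 13 lower ones 11 were, against 47.3%. In whole retinas, fewer rods and less RNA per rod cannot be told apart.

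By the authors' test, 0 member transcripts had a q-value under 0.05 in any comparison, where that share over all transcripts was 0% from WT to HET, 0.115% from WT to MUT and 0% from HET to MUT. The smallest q of any transcript was 0.0769 from WT to HET and 0.0762 from HET to MUT. Neurog2, the targeted gene, itself had that q in both (p = 5e-05 in the authors' deposited tables). The absence of calls in those comparisons is therefore not particular to the rod genes. From WT to MUT 8 of 105 member transcripts (7.62%) were lower at an unadjusted p under 0.05, against 0.483% of all transcripts, and 0 were higher, against 0.368%. They belonged to 8 genes, Sag, Reep6, Prph2, Nxnl1, Rom1, Rp1l1, Pde6b and Gnat1, each the gene's most abundant transcript, and each had q = 0.999. Among transcripts with 5 FPKM or more in either group the count was 7 of 39, against 0.763% of all. Each of the 8 differences was about as large as its implied error, and with a normal approximation to the deposited test statistic 0 member transcripts had a p under 0.05.

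**Figure D2:**
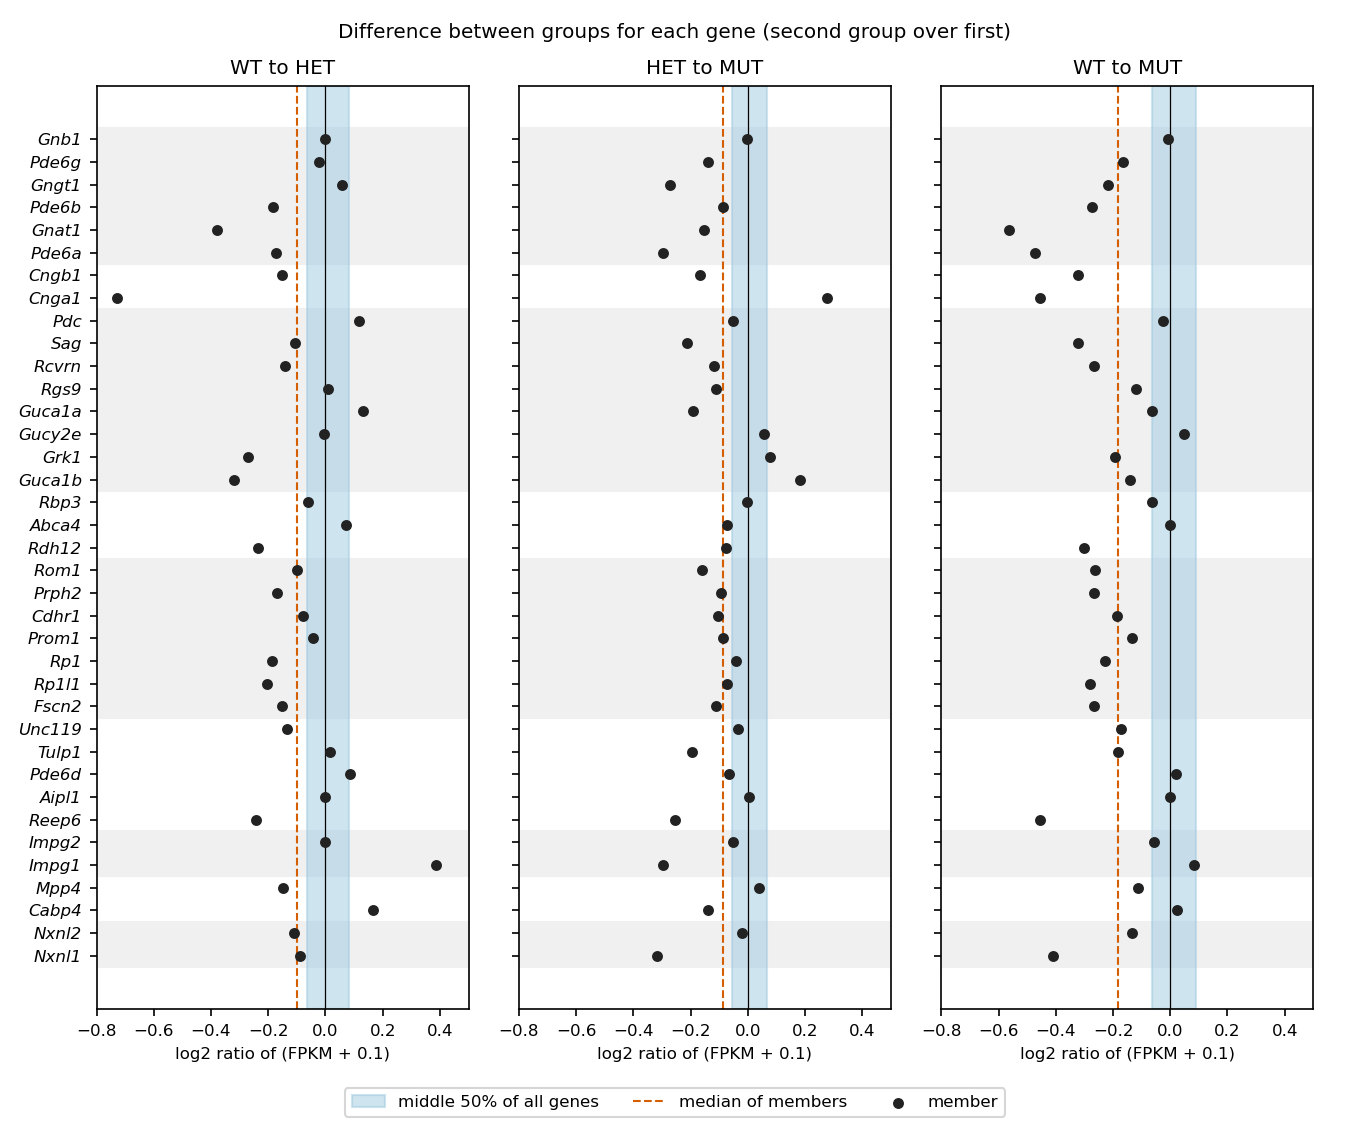
Log2 ratio of (FPKM + 0.1) of each gene, second group over first, in the 3 comparisons, in the order of the plot of levels; Cabp4 is drawn from WT to MUT although it was under the limit there. Points are genes, the dashed line is their median (-0.10 from WT to HET, -0.09 from HET to MUT and -0.18 from WT to MUT) and the blue band holds the middle 50% of all genes, so that most points of the third panel lie to the left of it.

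**Figure D3:**
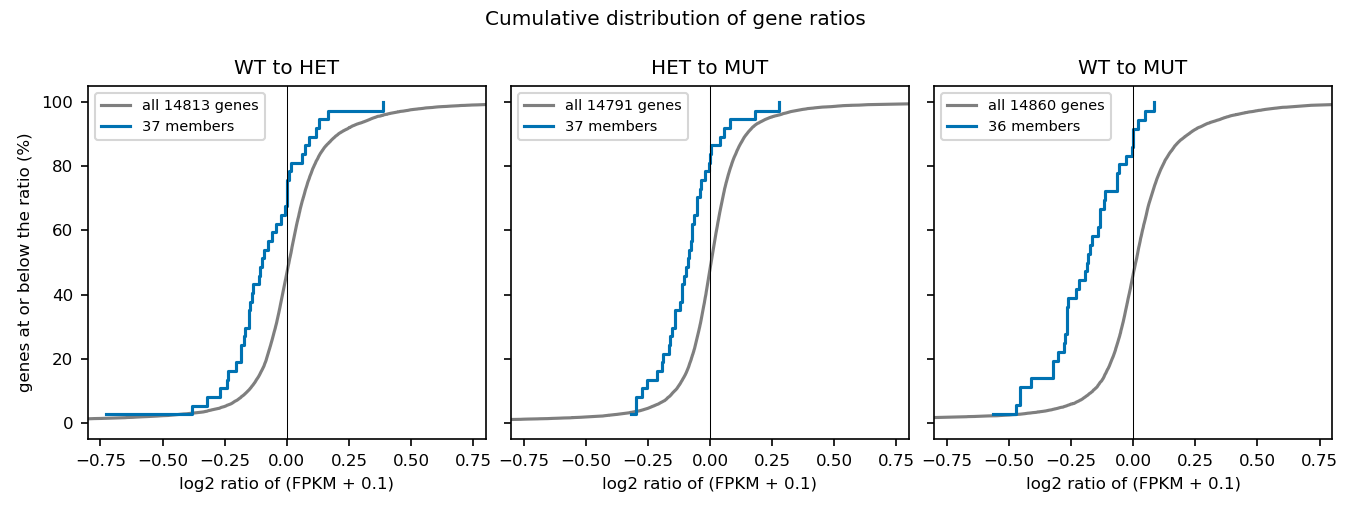
Share of genes at or below each log2 ratio of (FPKM + 0.1), for the rod genes and for all genes passing the same limit. The curve of the rod genes lies to the left of that of all genes over most of its course in each panel, by most from WT to MUT, where the medians are -0.18 and 0.01.

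The activation step held the genes with the lowest ratios from WT to MUT, Gnat1 and Pde6a, but also Gnb1 at -0.01. All 6 measured subunits of transducin and phosphodiesterase were below 0 from WT to MUT, with a median of -0.25. The medians of the channel, survival and disc structure genes were lower, at -0.39, -0.27 and -0.26. Gnat1 (chromosome 9, 107674474 to 107679712) had the lowest gene ratio of all the members at -0.56. Its main transcript was at 2.64 FPKM in WT against 1.76 in MUT by the authors' deposited table, a log2 difference of -0.59 ± 0.64 (p = 0.0462). In HET that transcript was at 1.75 FPKM, so the HET and MUT values lay together below WT, and the authors' deposited table put the difference from WT to HET at -0.58 ± 0.68 (p = 0.0637). Pde6b (chromosome 5, 108388391 to 108431743) was at 19.2 FPKM in WT against 15.5 in MUT by the authors' deposited table, a log2 difference of -0.31 ± 0.34 (p = 0.0371), with HET between them at 16.8 FPKM. Mutations of this gene cause early rod loss in several mouse strains. Its partner Pde6a, at under 1 FPKM, had a gene ratio of -0.47 that did not pass (p = 0.0712 in the authors' deposited table).

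Gngt1 (chromosome 6, 3993792 to 3997436) showed another order of groups. It was at 36.5 FPKM in WT and 31.4 in MUT, but HET was the highest with 37.8 FPKM. Between HET and MUT the authors' deposited table gave its transcript a log2 difference of -0.27 ± 0.26 (p = 0.0176, q = 0.999), the smallest p of any member there. Pde6g, the inhibitory subunit, had gene ratios of -0.02 from WT to HET and -0.14 from HET to MUT. Gnb1, which is not particular to rods, was nearly equal across groups, with gene ratios of -0.00, -0.00 and -0.01 in the order WT to HET, HET to MUT and WT to MUT. Its most abundant listed transcript was a retained-intron RNA of 812 nt at 108 FPKM in WT against 111 in MUT by the authors' deposited table, with a log2 difference of 0.03 ± 0.96 (p = 0.931, q = 0.999). The 5 protein-coding transcripts of Gnb1 made up 70.7% of its summed level in WT. They ranged from 9.07 to 96.2 FPKM in WT in the authors' deposited table.

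The cyclic GMP-gated channel of rods is a complex of Cnga1, which forms the pore, and Cngb1. Both were below 0 from WT to MUT, Cnga1 at -0.45 and Cngb1 at -0.32. For Cngb1 (chromosome 8) the main listed transcript was a short one of 1512 nt and 13 exons that covers the 5′ end of the gene, at 14.8 FPKM in WT against 11.6 in MUT by the authors' deposited table (-0.35 ± 0.50, p = 0.13, q = 0.999). The full-length transcript of 6189 nt was at 2.07 FPKM in WT against 1.5 in MUT by the authors' deposited table. The locus is known to encode soluble glutamic acid-rich proteins of the outer segment besides the channel subunit, from its 5′ part. Cnga1 (chromosome 5) had an order of groups of its own. Its main transcript was at 2.27 FPKM in WT, 0.90 in HET and 2.02 in MUT in the authors' deposited tables, and the difference between WT and HET, -1.34 ± 1.44 on the log2 scale, came nearest of the members to the threshold there (p = 0.0508). From HET to MUT the same transcript differed by 1.16 ± 1.29 in the authors' deposited table (p = 0.0563). Its second transcript went the other way in that step, from 1.39 to 0.786 FPKM in the authors' deposited table. Summed, the gene was at 3.88 FPKM in WT, 2.29 in HET and 2.80 in MUT.

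Of the 8 genes that end the light response and restore the dark state, 7 were below 0 from WT to MUT, with a median of -0.13. Sag (chromosome 1, 87803680 to 87845158), whose promoter is printed above, had the smallest p of the members. Its main transcript was at 187 FPKM in WT and 148 in MUT, a log2 difference of -0.34 ± 0.30 in the authors' deposited table (p = 0.0098). HET lay between at 171 FPKM, and between HET and MUT the authors' deposited table gave a log2 difference of -0.22 ± 0.23 (p = 0.031, q = 0.999). Rcvrn, the calcium sensor that restrains the pigment kinase, was at 22.3 FPKM in WT, 20.1 in HET and 18.5 in MUT, a gene ratio of -0.27 from WT to MUT that did not pass (p = 0.261 in the authors' deposited table). Grk1, that kinase, had -0.19 and Rgs9, which speeds GTP hydrolysis by transducin, -0.12. Pdc had gene ratios of -0.03 from WT to MUT and 0.12 from WT to HET. It was at 205 FPKM in WT against 201 in MUT, and at 192 in WT against 208 in HET in the table of those groups, which lists 1 transcript fewer. Its main transcript differed by -0.00 ± 0.51 from WT to MUT in the authors' deposited table (p = 0.99, q = 0.999). A further Pdc transcript was listed in the comparison of WT with MUT alone, at 12.0 and 0.0915 FPKM in the authors' deposited table, with p = 0.325. The summed ratio of Pdc was below 0 through that transcript alone. Besides the main transcript, the other listed one was at 84.4 FPKM in WT and 92.6 in MUT (0.13 ± 0.76). Gucy2e, the guanylate cyclase, was above 0 at 0.05, and its activators Guca1a and Guca1b had -0.06 and -0.14. Between WT and HET these 2 activators lay apart, at 0.13 and -0.32.

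The genes of disc and outer segment structure were all on the same side. All 7 structural genes were below 0 in each comparison, with medians of -0.15 from WT to HET, -0.09 from HET to MUT and -0.26 from WT to MUT, and a narrow range from -0.28 to -0.13 in the last. Each of the 7 had its highest level in WT and its lowest in MUT, with HET between. The comparisons share groups, so these values are set side by side and are not independent. Rom1 (chromosome 19, 8927391 to 8929356) was at 144 FPKM in WT, 134 in HET and 120 in MUT, and its transcript differed by -0.26 ± 0.28 from WT to MUT in the authors' deposited table (p = 0.0351). Prph2 (chromosome 17, 46910459 to 46924933), its partner tetraspanin at the disc rim, had a main transcript at 67.4 FPKM in WT against 54.5 in MUT by the authors' deposited table, a log2 difference of -0.31 ± 0.30 (p = 0.0216). A retained-intron RNA of Prph2 was at 9.25 and 9.20 FPKM in the authors' deposited table. Discs do not form without Prph2, and the ratio of Rom1 to Prph2 levels was nearly the same in the 3 groups, as given above.

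Rp1l1 (chromosome 14, 63992506 to 64033506), a microtubule-associated protein of the outer segment axoneme, was at 8.82 FPKM in WT, 7.60 in HET and 7.25 in MUT, with a log2 difference of -0.28 ± 0.30 from WT to MUT in the authors' deposited table (p = 0.0358). Its relative Rp1 was at 12.0 FPKM in WT, 10.5 in HET and 10.2 in MUT and did not pass (-0.23 ± 0.29, p = 0.0657 in the authors' deposited table). The levels of the pair kept a ratio of 1.36 in WT, 1.38 in HET and 1.41 in MUT. Cdhr1, a cadherin at the base of the outer segment, had a gene ratio of -0.18 from WT to MUT, Prom1, a membrane protein of nascent discs that many epithelia also make, -0.13, and Fscn2, an actin bundler, -0.27. None of these last genes passed. Prom1 was spread over 7 protein-coding transcripts between 0.358 and 10.2 FPKM in WT in the authors' deposited table, and 43.6% of the summed level of Fscn2 came from a protein-coding transcript.

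**Figure D4:**
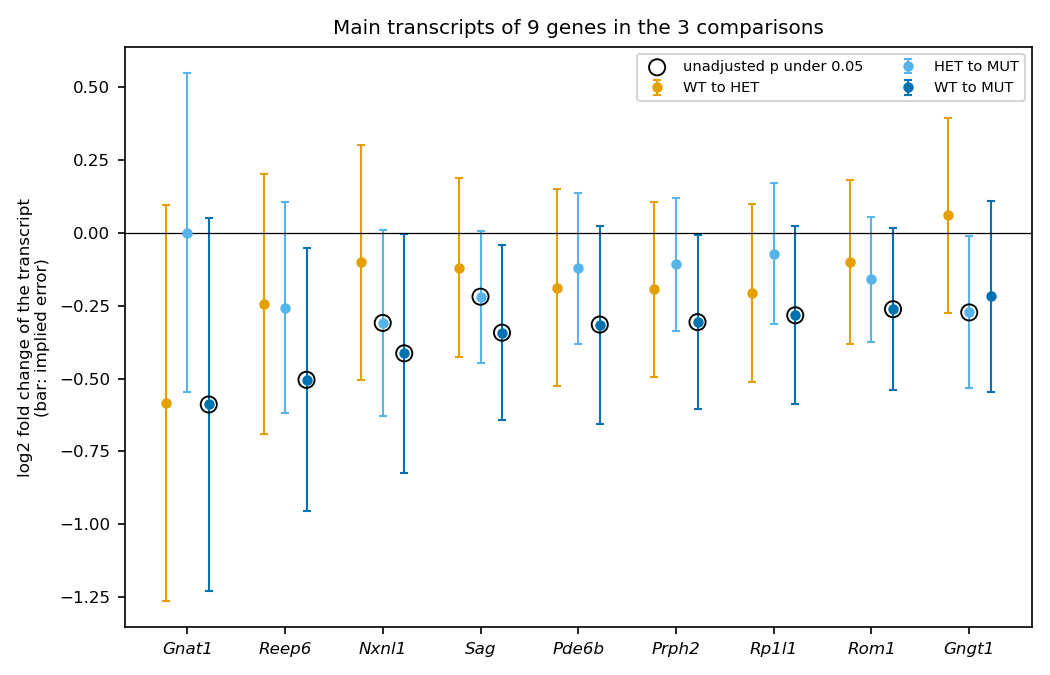
Log2 fold change, with its implied error as a bar, of the main transcript of the 9 genes with an unadjusted p under 0.05 in some comparison, in the order WT to HET, HET to MUT and WT to MUT within each gene. Circles mark p under 0.05. From WT to MUT all 9 points lie below 0, from -0.59 for Gnat1 to -0.22 for Gngt1, and from WT to HET Gngt1 is the 1 point above it.

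Among the chaperones and carriers, Reep6 had the lowest ratio from WT to MUT at -0.45. Reep6 (chromosome 10, 80330145 to 80336440) encodes a shaper of the endoplasmic reticulum that rods need for membrane traffic. Its main transcript was at 7.62 FPKM in WT, 6.40 in HET and 5.37 in MUT, a log2 difference of -0.50 ± 0.45 from WT to MUT in the authors' deposited table (p = 0.0145), the second smallest p of the members there. The gene ratios were alike in both steps, -0.24 from WT to HET and -0.25 from HET to MUT. Unc119, the most abundant of these genes, had a main transcript at 186 FPKM in WT against 162 in MUT by the authors' deposited table (-0.20 ± 0.30, p = 0.14, q = 0.999). Tulp1, which carries membrane proteins to the outer segment, summed to 92.7 FPKM in WT, 93.2 in HET and 81.7 in MUT. In these sums WT and HET lay together above MUT, although no transcript of Tulp1 passed. Its main transcript did not share that order. In the authors' deposited tables it was at 71.8 FPKM in WT against 66.2 in HET (-0.12 ± 0.33). From HET to MUT it was at 66.3 against 61.0 FPKM (-0.12 ± 0.24). The near-equal sums of WT and HET thus rest on less abundant transcripts with larger implied errors, such as 3.98 against 6.02 FPKM (0.60 ± 2.45). Aipl1, the chaperone of phosphodiesterase, was nearly equal at 12.2, 12.1 and 12.2 FPKM in WT, HET and MUT. Pde6d, which carries prenylated subunits and is made in many tissues, stood at 62.8, 66.3 and 63.6 FPKM.

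The remaining genes act on retinoids, in the matrix around the outer segments, at the rod terminal and in survival. Rbp3 was at 143 FPKM in WT against 137 in MUT by the authors' deposited table, a log2 difference of -0.07 ± 0.33 (p = 0.66, q = 0.999). Rdh12, which reduces the spent chromophore, had a gene ratio of -0.30 from WT to MUT, and Abca4, the flippase that clears it from discs, 0.00. For Abca4 the full-length coding transcript was at 4.74 FPKM in WT against 3.54 in MUT by the authors' deposited table, while a retained-intron RNA went from 2.11 to 3.48 FPKM, and neither passed (p = 0.0966 and 0.337). Impg2, a matrix proteoglycan, was nearly equal at 21.4, 21.3 and 20.6 FPKM in WT, HET and MUT, with its main transcript at -0.06 ± 0.32 from WT to MUT in the authors' deposited table (p = 0.697, q = 0.999). Its relative Impg1 was highest in HET, with 2.16 FPKM against 1.64 in WT and 1.74 in MUT.

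Mpp4, a scaffold of the rod terminal, had a main transcript at 5.89 FPKM in WT against 5.11 in MUT by the authors' deposited table (-0.21 ± 0.90, p = 0.614, q = 0.999). Of the 37 genes it is the 1 whose main transcript shares exon bases with another gene, 21.7% of them with G730003C15Rik on the opposite strand, and no source used here says if the libraries were stranded. Cabp4 had gene ratios of 0.17 from WT to HET and -0.14 from HET to MUT at levels near 0.5 FPKM. Nxnl1 (chromosome 8, 71560555 to 71566601) encodes a thioredoxin-like factor that rods supply to keep cones alive. It was at 7.44 FPKM in WT against 5.58 in MUT by the authors' deposited table, a log2 difference of -0.41 ± 0.41 (p = 0.0231), and at 6.91 FPKM in HET against 5.57 in MUT, a log2 difference of -0.31 ± 0.32 (p = 0.0284, q = 0.999). WT and HET lay closer to each other, at 7.39 and 6.89 FPKM in the authors' deposited table. Its paralogue Nxnl2 was higher in level, at 21.3 FPKM in WT against 19.4 in MUT by the authors' deposited table (-0.13 ± 0.36, p = 0.412, q = 0.999).

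Comparing WT with HET addresses the loss of 1 Neurog2 copy in retinas that also gain Cre. Of 37 measured genes 28 were below 0, against 46.9% of all 14813 genes, with a median of -0.10 (-6.74%) and a range from -0.73 for Cnga1 to 0.38 for Impg1. The median of all genes was 0.01. Over the 23 genes with 10 FPKM or more in WT 16 were below 0, against 45.2% of all at that level, and over the 14 lower ones 12 were, against 48.9%. By the authors' test, 0 of 105 member transcripts were lower at an unadjusted p under 0.05, against 0.288% of all, and 0 were higher, against 0.227%. The genes above 0 besides Impg1 included Cabp4, Guca1a, Pdc, Pde6d, Abca4 and Gngt1, with gene ratios between 0.06 and 0.17.

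Comparing HET with MUT addresses the loss of the second copy, with Cre on both sides. Of 37 measured genes 31 were below 0, against 47.9% of all 14791 genes, with a median of -0.09 (-5.82%) and a range from -0.32 for Nxnl1 to 0.28 for Cnga1. The median of all genes was 0.00. Among the 23 genes with 10 FPKM or more in HET 22 were below 0, against 49% of all at that level, but among the 14 lower ones 9 were, against 46.5%. By the authors' test, 3 of 106 member transcripts (2.83%), those of Gngt1, Nxnl1 and Sag, were lower at an unadjusted p under 0.05, against 0.471% of all, and 0 were higher, against 0.344%. With 5 FPKM or more in either group the count was 3 of 39, against 0.773%. Sag and Nxnl1 were also among the genes at that threshold from WT to MUT, a comparison that shares the MUT samples. Whether the steps from WT to HET and from HET to MUT differ was not tested, since both use the HET samples.

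Coding and non-coding transcripts of the rod genes lay mostly on different sides of 0 from WT to MUT. Among transcripts with 0.5 FPKM or more, 48 of 61 protein-coding ones of these genes were below 0 from WT to MUT, against 50% of all protein-coding transcripts, with a median of -0.19 against 0.00. Of the 31 transcripts of the same genes that do not code for protein, mostly retained introns, 10 were below 0, against 27.1% of all such transcripts, with a median of 0.18 against 0.24. The pattern of the non-coding transcripts was thus near that of all genes. From WT to HET 38 of 62 coding transcripts were below 0, against 49.6% of all, and 7 of 29 non-coding ones, against 32.6%. From HET to MUT the counts were 51 of 63, against 49.3%, and 16 of 32, against 40.4%. Tulp1 and Unc119 hold many of the non-coding transcripts. The 4 retained introns of Unc119 did not share a direction. By the authors' deposited table the most abundant was at 13.1 FPKM in WT and 14.1 in MUT, and others were at 2.04 against 3.20, 2.61 against 4.76 and 1.39 against 0.906 FPKM, each with an implied error of 1.60 or more on the log2 scale. Transcripts of 1 gene share reads, so their values are not independent.

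**Figure D5:**
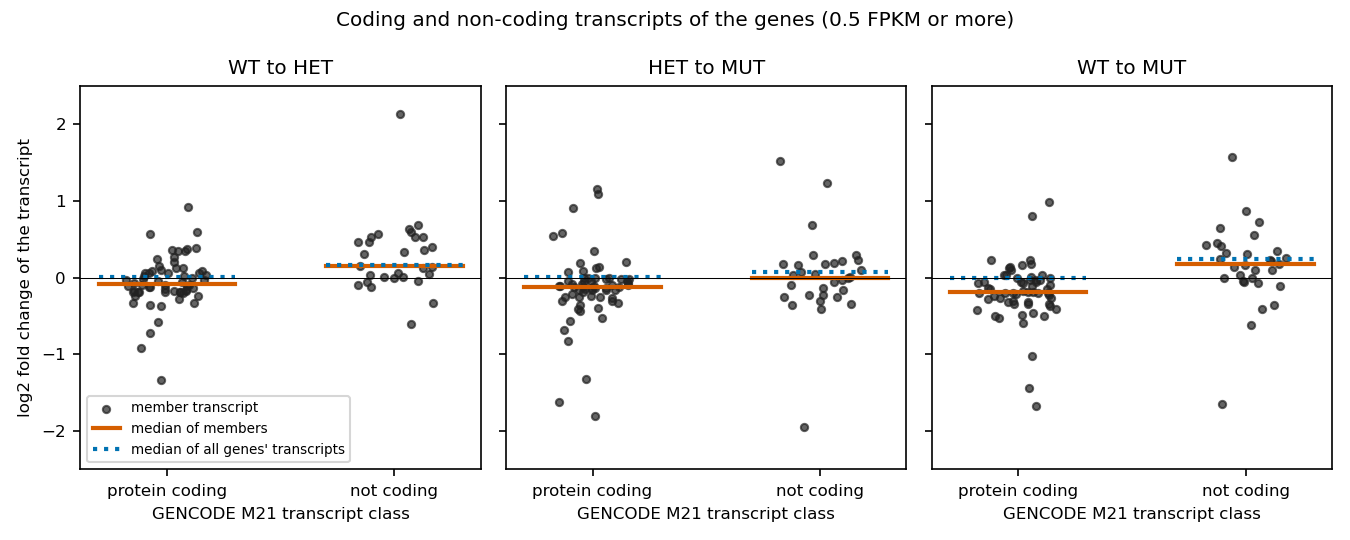
Log2 fold change of each transcript of the rod genes with 0.5 FPKM or more in either group, split by GENCODE class, with medians of these transcripts (solid) and of all genes' transcripts of the class (dotted). Medians from WT to MUT are -0.19 against 0.00 for coding and 0.18 against 0.24 for non-coding transcripts. The axis leaves out 1 transcript of Abca4 at -2.95 from HET to MUT and 1 of Pdc at -7.03 from WT to MUT.

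The same group's level can be read from 2 tables, which shows how far the processing alone moved a value. Over transcripts in both tables the deposited levels differed by a nearly constant factor, a median log2 difference of 0.0077 for WT, 0.0033 for HET and -0.0021 for MUT. Summed per gene, the largest differences among the members were 0.0949 for Pdc, 0.0951 for Rdh12 and 0.0766 for Gnat1, because the tables did not list the same transcripts. For Gnat1 the gene ratio from HET to MUT was -0.15 with the listed transcripts and -0.00 with its main transcript alone.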

How the data were processed

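Retinal RNA of 15 mouse samples (3 groups of 5) was sequenced, and the authors deposited 3 transcript-level comparison tables, 1 for each pair of groups. Bowtie2, Cufflinks, Cuffdiff and the genome build mm10 are named, without versions, per the submitters' processing notes. Per the file headers, each table holds FPKM for each group, pooled by the authors over replicates, and the deposited log2 fold change, test statistic (a score with no fixed range), p-value and q-value. The deposited values are not counts, so no count test was run, and the depth per sample and its precision are unknown.

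FPKM of a gene's transcripts were summed, genes under 0.5 FPKM in both groups were left out, and ratios are log2 of (FPKM + 0.1), which understates changes of low genes. WT and MUT levels were taken from the table of WT and MUT, HET levels from that of WT and HET. Calls used the authors' test at q under 0.05, and counts at an unadjusted p under 0.05 are given beside it. Medians and shares are descriptions, as genes are not replicates. Transcript classes, lengths and 1-based coordinates are from GENCODE M21, which matched 98.8% of transcripts in each table, and promoters are from RefSeq (GRCm38.p6). The members and lists were chosen with earlier results of these data known. Named with full values were members with a p under 0.05 and the most abundant member of each role; the target gene and genes of other lists past a threshold could also be named. Results on a few genes are left out.

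Alternatives were other q thresholds (0.01 and 0.1), a recomputed correction, a filter of rows at 1 FPKM, a normal approximation, pseudocounts of 0.01 and 1, no filter and 2 FPKM, the top transcript alone, median centring and leaving out 4 widely expressed members. Computation used Python 3.11.15, pandas 2.3.3, numpy 2.4.6, scipy 1.17.1 and matplotlib 3.10.9, and the scripts were tested on simulated data.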

Additional observations from a re-analysis of the deposited data

How the results depend on the processing

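The direction of the median of the rod genes and of most of its members held under each alternative tried. The medians ranged from -0.12 to -0.09 from WT to HET, from -0.22 to -0.18 from WT to MUT and from -0.11 to -0.07 from HET to MUT, and the share of members below 0 from 75.7% to 83.8%, from 83.8% to 91.7% and from 81.8% to 87.5%. The alternatives of transcripts in all 3 tables alone and of protein-coding transcripts alone were chosen after seeing the data. With a normal approximation to the deposited test statistic in place of Cuffdiff's p-values, 0 member transcripts had a p under 0.05 from WT to MUT (8 as deposited) and 0 from HET to MUT (3 as deposited); the deposited p-values are smaller than the ratio of change to implied error would give. No member transcript was called under any threshold or correction tried, with Cuffdiff or with the normal approximation. Single genes were recomputed for the 9 with a p under 0.05 in some comparison, and among these the ratio of Gnat1 from HET to MUT moved from -0.15 to -0.00 with its main transcript alone, with transcripts in all 3 tables and with coding transcripts alone. For genes not recomputed, the main transcript can differ more from the sum: in the authors' deposited tables that of Cnga1 was at -1.34 from WT to HET and 1.16 from HET to MUT (sums -0.73 and 0.28), and that of Abca4 at -0.42 from WT to MUT (sum 0.00). No paired analysis was possible because the tables hold pooled group values, although the labels number the replicates 1 to 5 in each group and add codes that start with 7, 21 or 23, and for the same reason no result could be recomputed without 1 replicate. The depth behind each value is unknown.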

Other observations

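The transcription factors of photoreceptors were also mostly a little lower in MUT. Of 10 such factors on the list, 8 had a gene ratio below 0 from WT to MUT, with a median of -0.12, 9 from WT to HET (-0.11) and 7 from HET to MUT (-0.03). The shares of all genes below 0 were 46.2%, 46.9% and 47.9% in that order. The 2 factors above 0 from WT to MUT were Prdm1 at 0.25 and Rorb at 0.01. Prdm1 was also above 0 from WT to HET, at 0.27. From WT to MUT 2 of 39 transcripts on the list were lower at an unadjusted p under 0.05 and none passed at q under 0.05, against 0.483% of all transcripts lower at that p. They were Neurod1, a basic helix-loop-helix factor that photoreceptors need, at 144 FPKM in WT and 120 in MUT in the authors' deposited table (-0.27 ± 0.30, p = 0.0478, q = 0.999), and Nr2e3, a nuclear receptor that keeps cone genes silent in rods, at 122 and 96.2 FPKM in the authors' deposited table (-0.34 ± 0.37, p = 0.0435, q = 0.999). Summed over its transcripts, Nr2e3 was at 165 FPKM in WT against 149 in MUT, a ratio of -0.14.

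Of 45 measured genes on a second list of phototransduction, cone and photoreceptor cilium genes, 29 were below 0 from WT to MUT, against 46.2% of all genes. Their median was -0.05, beside -0.18 for the rod genes. The difference between the lists was not tested. From WT to MUT 3 of the 140 transcripts on this list were lower at an unadjusted p under 0.05, against 0.483% of all transcripts, and 0 were higher, against 0.368%. Among those lower were transcripts of a pair of calcium channel genes, both with q = 0.999. Cacna1f encodes the pore of the calcium channel of photoreceptor terminals. A single transcript of Cacna1f was at 1.28 FPKM in WT and 0.397 in MUT by the authors' deposited table (-1.69 ± 1.54, p = 0.0202). The gene differed less than that transcript, with a ratio of -0.22 from WT to MUT when summed over its transcripts. A transcript of Cacna2d4, an accessory subunit of that channel, was at 6.04 and 4.59 FPKM in the authors' deposited table (-0.40 ± 0.44, p = 0.0452). The sum for Cacna2d4 was 10.8 FPKM in WT and 9.24 in MUT, a ratio of -0.23.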
